A study of Drosophila melanogaster with 2 samples.

Results

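The genes of the nuclear pore complex were examined for promoter peaks of CG3847, the product of a Drosophila melanogaster gene that the labels treat as a transcription factor. The members are the protein-coding genes whose symbol begins with Nup and a number, together with Gp210, Ndc1, Sec13, mbo and Elys, which gave 26 of the 13968 protein-coding genes in the annotation. Mtor was dropped because that symbol is missing from the annotation. Chromatin immunoprecipitation and sequencing were done on whole embryos collected 0 to 24 h after egg laying, from transgenic flies making a CG3847-eGFP fusion, with an antibody against GFP and sonicated fragments of 200 to 800 bp. The series holds 2 biological replicates of 1 group. Control libraries were not analysed here, so signal that does not depend on CG3847 is not told apart from its binding, and whole embryos mix all tissues and stages of that window. A gene was counted as having a promoter peak when a summit fell no farther than 500 bp from one of its transcription start sites (TSS).

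The nuclear pore is the channel through which proteins and RNAs pass between nucleus and cytoplasm. An outer ring of Y-shaped complexes faces both sides, an inner ring lines the membrane, a central channel of disordered, phenylalanine-glycine rich proteins forms the barrier, transmembrane proteins anchor the structure, and filaments on the cytoplasmic side and a basket on the nuclear side dock cargo. In fly embryos, pores are built rapidly during the syncytial nuclear divisions, from maternal stores of these proteins. Several pore proteins, Nup98 and Elys among them, also bind chromatin inside the nucleus.

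The sequences under the summits show what the promoter peaks of pore genes lie on. They are given for the strongest peak (Nup37), for summits with a 6-letter or 8-letter word close by (Sec13 and Nup43), for an AT-rich summit (Nup160) and for the weakest peak (Nup107), each from the Release 6 genome of RefSeq, which is build dm6. Each runs 5′ to 3′ on the strand of the gene and lies upstream of its TSS. Capitals mark CAGCTG in Nup37 and Sec13, the pattern CANCNCTG in Nup37 and Nup43, and TATAAA or its reverse complement in Nup160 and Nup43. The stretches are chr3R:25247515-25247574 (plus strand) for Nup37, chr3R:23356108-23356207 (plus) for Sec13, chr3R:18366513-18366612 (plus) for Nup43, chr2L:11123664-11123763 (plus) for Nup160 and chr2L:10736072-10736147 (minus) for Nup107.
Nup37: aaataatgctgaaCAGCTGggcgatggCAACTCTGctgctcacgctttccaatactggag
Sec13: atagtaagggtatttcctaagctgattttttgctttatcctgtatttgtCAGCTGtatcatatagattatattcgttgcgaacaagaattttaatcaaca
Nup43: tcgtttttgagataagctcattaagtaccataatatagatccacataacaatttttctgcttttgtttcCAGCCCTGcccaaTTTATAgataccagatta
Nup160: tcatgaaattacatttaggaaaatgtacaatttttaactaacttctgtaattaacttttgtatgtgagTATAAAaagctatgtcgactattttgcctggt
Nup107: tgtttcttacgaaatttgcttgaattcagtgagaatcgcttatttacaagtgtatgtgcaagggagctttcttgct

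The 5 stretches were picked by the traits named above, and their base content and marked words differed. Guanine and cytosine made up 50% of the Nup37 stretch, 36.8% of that of Nup107, 33% of that of Nup43, 30% of that of Sec13 and 27% of that of Nup160. In Nup37 the middle of CAGCTG lay 128 bp upstream of the TSS and 5 bp from the summit, and in Sec13 it lay 1 bp from the summit. The Nup107 stretch held none of the marked words.

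Each peak carries a deposited signal, the peak caller's own value, whose scale is not stated, and it is used here to rank and describe peaks. The authors filtered peaks by the irreproducible discovery rate (IDR), which keeps those ranked alike in a pair of data sets, and peaks at a global IDR of at most 0.01 form their thresholded sets. Their ranked tables also list peaks that did not pass. The plot of signals by gene shows both, ordered by the place of each protein in the pore.

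**Figure D1:**
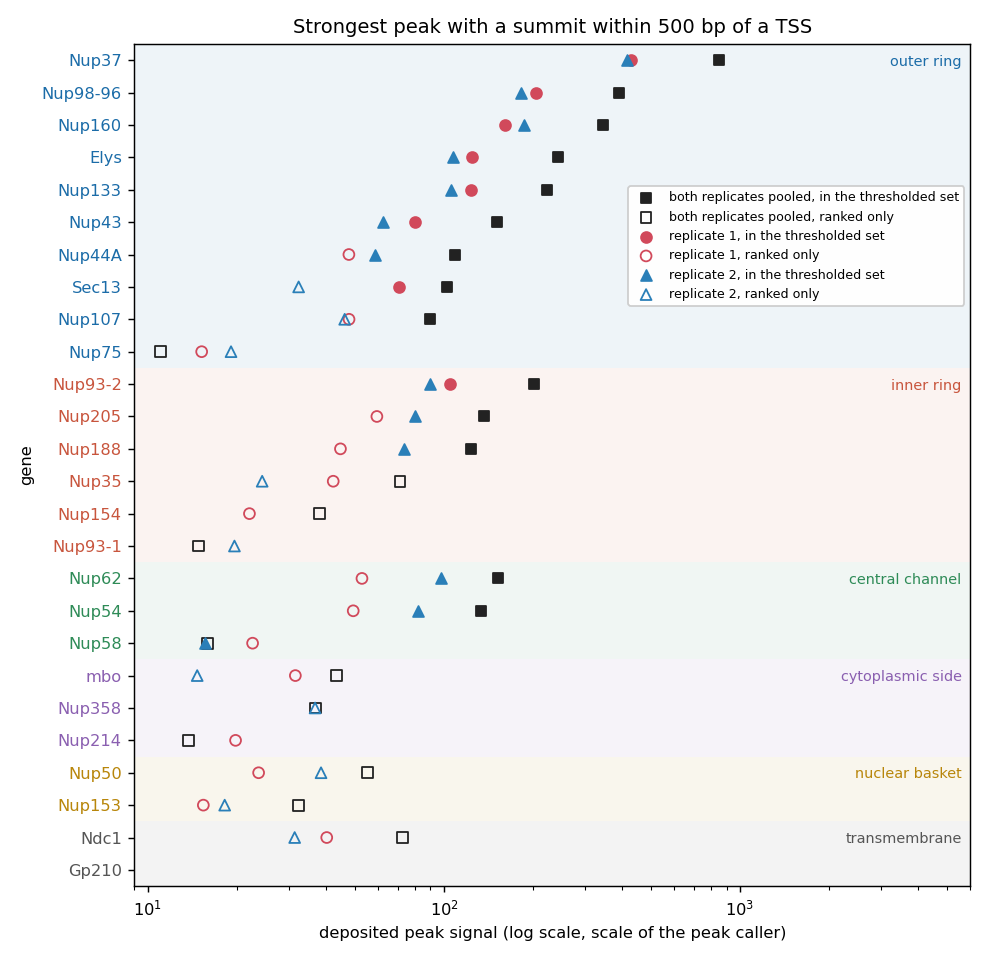
Deposited signal (log axis, scale of the peak caller) of the strongest peak with a summit within 500 bp of a TSS of each of the 26 pore genes, by subcomplex; squares are both replicates pooled (the optimal set and its ranked table), circles replicate 1 and triangles replicate 2, filled where the peak is in the thresholded set. Signals of pooled peaks ran from 847 at Nup37 to 11.0 at Nup75, and Gp210 had no peak of any strength.

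Of the 26 pore genes, 14 (53.8%, exact 95% interval 33.4 to 73.4) had a promoter peak in the optimal set, the authors' thresholded set from both replicates, against 31.0% of all protein-coding genes. In the conservative set, the smaller of the authors' 2 sets from both replicates, 15 genes (57.7%) had one, against 30.3%. The thresholded set of replicate 1 alone gave 8 genes (30.8%, interval 14.3 to 51.8), against 23.8%, and that of replicate 2 gave 13 (50%, interval 29.9 to 70.1), against 26.4%. A promoter peak in the optimal set and in both replicate sets was found at 7 of 26 pore genes (26.9%, interval 11.6 to 47.8), against 20.9%. The shares of replicate 1 and of both replicates together had intervals that cover the share of all genes. The intervals cover the counting of genes only, and no test was made, since the genes were chosen with earlier results of these data known.

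**Figure D2:**
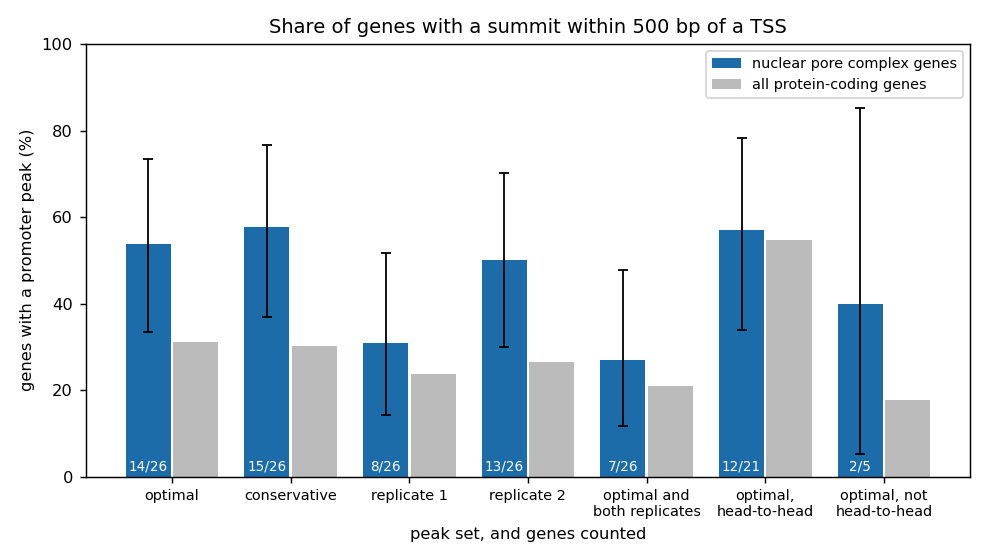
Share (percent) of pore genes (blue) and of all protein-coding genes (grey) with a promoter peak in each peak set, with exact 95% intervals on the shares of pore genes, and for the optimal set also among genes with and without a head-to-head neighbour. Pore genes reached 53.8% in the optimal set, 30.8% in replicate 1 and 50% in replicate 2, beside 31.0%, 23.8% and 26.4% of all protein-coding genes.

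Most pore genes start opposite another gene. A protein-coding gene on the other strand began 1 to 1000 bp upstream of a TSS in 21 of 26 pore genes (80.8%), against 36.2% of all protein-coding genes. Such head-to-head genes had a peak far more often in the genome at large. Among head-to-head genes, 12 of 21 pore genes (57.1%, interval 34 to 78.2) had a promoter peak, against 54.6% of all such genes, so the share of pore genes was close to the background. Of the pore genes without a head-to-head neighbour, 2 of 5 (40.0%, interval 5.27 to 85.3), Nup54 and Nup107, had a peak, against 17.7% of such genes. This split was chosen after the data were seen.

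The outer ring held most of the peaks. Of its 10 genes, 9 had a promoter peak, and Nup75, a scaffold subunit of the Y complex, did not. Outside the outer ring 5 of 16 pore genes had one (31.2%), which is close to the 31.0% of all protein-coding genes. Head-to-head neighbours stood at 9 of 10 outer ring genes and 12 of 16 of the others. The difference between the outer ring and the other genes was not tested, and it varied: it was 7 of 10 against 1 of 16 in replicate 1, and 7 of 10 against 6 of 16 in replicate 2. When a peak counted only for the gene with the nearest TSS, it was 5 of 10 against 4 of 16. The share of all protein-coding genes was not counted under that rule.

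Nup37 (FBgn0039301, chr3R:25247658-25249100, plus strand), a small subunit of the Y complex, had the strongest promoter peak of the pore genes. Its signal was 427 in replicate 1, 416 in replicate 2 and 847 in the optimal set, where it ranked 119 of 6148 peaks. The peak spanned chr3R:25247376-25247687 and its summit lay 133 bp upstream of the Nup37 TSS. The same summit was 11 bp upstream of RpS27, which encodes a protein of the small ribosomal subunit and runs the other way. The summit was thus nearer to the ribosomal gene than to Nup37.

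Nup98-96 (FBgn0039120, chr3R:23774225-23781621, minus strand) encodes a precursor that is cut into a barrier protein and a Y complex scaffold protein. Its peak had a signal of 205 in replicate 1, 182 in replicate 2 and 390 in the optimal set, and the summit fell in its 5′ untranslated region, 35 bp downstream of the TSS. Nup160, a large scaffold subunit of the Y complex (FBgn0262647, chr2L:11123777-11129335, plus strand), had 160, 186 and 346, with the summit 63 bp upstream. It shares that region with Csl4, a subunit of the RNA exosome, which starts 147 bp from the summit on the other strand. Both genes had their peak in both replicate sets, and both ranked among the first 1000 of the 6148 optimal peaks, at ranks 569 and 718.

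Elys (FBgn0031052, chrX:19652305-19659407, plus strand), which recruits the Y complex to chromatin after mitosis, had a signal of 124 in replicate 1, 107 in replicate 2 and 243 in the optimal set. The summit was 122 bp upstream of Elys and 86 bp inside Ranbp21, which encodes an exportin of the nuclear transport machinery, so 1 peak stands at the starts of a pore gene and a transport receptor gene. Nup133, another scaffold subunit (FBgn0039004, chr3R:22690607-22694772, plus strand), had 123, 106 and 223, with the summit 113 bp from its TSS and 114 bp from that of wfs1 on the other strand. Nup43, a peripheral subunit, had 80.1, 62.4 and 150, with the summit 75 bp upstream. These 3 genes also had a peak in both replicate sets.

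The last 3 outer ring genes with a peak were weaker, and none of them passed the threshold in both replicates. Nup44A, the fly gene for the subunit called Seh1 elsewhere, had a signal of 58.4 in replicate 2 and 109 in the optimal set. In replicate 1 it had a ranked signal of 47.7, not past the threshold there. Its summit lay within introns of both Nup44A and ACC, the acetyl-CoA carboxylase gene on the other strand. It was 74 bp upstream of the internal TSS of a shorter Nup44A transcript and 71 bp upstream of an internal TSS of ACC. Sec13, which serves both the Y complex and the COPII coat of secretory vesicles, had 70.4 in replicate 1 and 103 in the optimal set. In replicate 2 it had 32.3, not past the threshold there. Nup107, a core subunit, had 47.8 and 46.2, not past the threshold in either replicate, and 89.6 in the optimal set, the lowest of the 14. It was also the only one of the 14 whose peak had no TSS of another gene within 500 bp.

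Inner ring genes had 3 peaks among 6 genes. All 6 had a head-to-head neighbour, and 54.6% of all such genes had a peak. Nup93-2 (FBgn0038274, chr3R:14895703-14898372, minus strand), a linker subunit, had a signal of 105 in replicate 1, 89.3 in replicate 2 and 201 in the optimal set, with the summit 29 bp upstream. The large scaffold genes Nup205 and Nup188 had 136 and 123 in the optimal set, 79.5 and 73.0 in replicate 2, and 59.3 and 44.7 in replicate 1, where neither passed the threshold. Nup93-1, the paralogue of Nup93-2, had no promoter peak and a strongest ranked signal of 14.8 in the pooled table. The nearest optimal summit to Nup93-1 lay 521 bp upstream, just past the 500 bp limit, at Clic, with a signal of 68.1.

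Nup62, Nup54 and Nup58 form the barrier of the central channel. Nup62 had a signal of 97.9 in replicate 2 and 152 in the optimal set, and Nup54 had 81.9 and 134. In replicate 1 they had ranked signals of 52.8 and 49.4, neither past the threshold. Both summits lay in the gene's own 5′ untranslated region, counted over all transcripts. Nup58 was listed in the replicate 2 set through a peak of 15.5 that overlaps one of 85.7. The stronger summit lies 533 bp upstream in the optimal set, at Vha13, a subunit gene of the proton pump, with a signal of 94.2 in replicate 1, 85.7 in replicate 2 and 176 in the optimal set.

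Across the 14 genes, 7 had their peak in both replicate sets (Nup37, Nup98-96, Nup160, Elys, Nup133, Nup93-2 and Nup43). In 5 it was in the set of replicate 2 but not of replicate 1 (Nup62, Nup205, Nup54, Nup188 and Nup44A), and Sec13 had it in replicate 1 alone. Among all protein-coding genes with an optimal peak, 67.6% had one in both replicate sets, 15.0% in replicate 2 alone, 7.11% in replicate 1 alone and 10.4% in neither. The log2 ratio of ranked signal, replicate 1 over replicate 2, had a median of 0.04 over the 14 pore genes, against 0.03 over 4294 genes with an optimal peak and a ranked signal in both replicates. It lay between the 5th and 95th percentile of those genes, -0.86 and 0.79, for 12 of 14 pore genes. Nup62 fell outside at -0.89 and Sec13 at 1.12, and each of them passed the threshold in 1 replicate only.

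**Figure D3:**
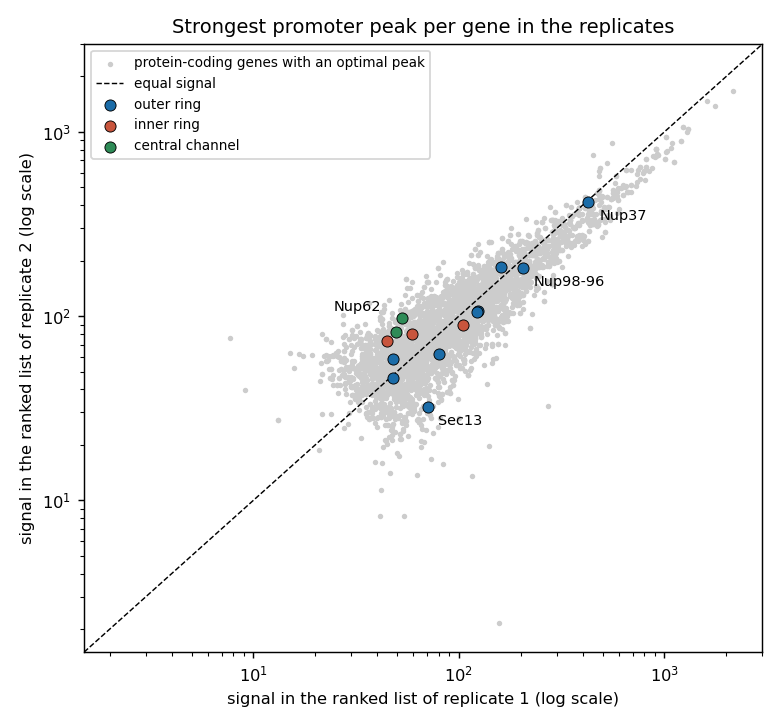
Ranked signal in replicate 1 against replicate 2 (log axes, scale of the peak caller) for protein-coding genes with an optimal promoter peak, with the 14 pore genes marked. Most pore genes lie near equality, with Nup62 (52.8 and 97.9) on the side of replicate 2 and Sec13 (70.4 and 32.3) on that of replicate 1.

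The peaks of pore genes were of ordinary strength. The median optimal signal was 151 over the 14 pore genes (range 89.6 to 847), against 173 over the 4330 protein-coding genes with a peak, and 6 of 14 lay above that median. In the replicate sets the medians were 124 over 8 pore genes, against 110 in replicate 1, and 89.3 over 13 pore genes, against 102 in replicate 2. These medians cover the genes that passed the threshold in each set and leave out the others.

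The summits sat close to the starts. The median summit lay 68.5 bp upstream of the TSS in pore genes, against 93 bp upstream over all genes with a peak. It was upstream in 11 of 14 pore genes, against 87.9%, and the 3 others were Nup98-96, Nup54 at 30 bp and Nup188 at 5 bp downstream. Distances are to the nearest TSS of a gene, which at Nup62 and Nup44A lies inside the gene. The summit was within 150 bp of the TSS in 14 of 14, against 65.2%, and the farthest was that of Nup37 at 133 bp. Another gene's TSS lay within 500 bp of the same summit in 13 of 14, against 60.4%, in each case on the other strand. The pore gene's own TSS was the nearest one in 9 of 14, while that of the neighbour was nearer in Elys, Nup205, Nup37, Nup44A and Sec13. Where both replicate sets held the peak, their summits lay close together at Nup37, 133 bp upstream in replicate 1 and 132 bp in replicate 2, and farthest apart at Nup133, 145 bp upstream in replicate 1 and 63 bp in replicate 2. The median gap over these 7 genes was 19 bp, with the 82 bp of Nup133 at the top.

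**Figure D4:**
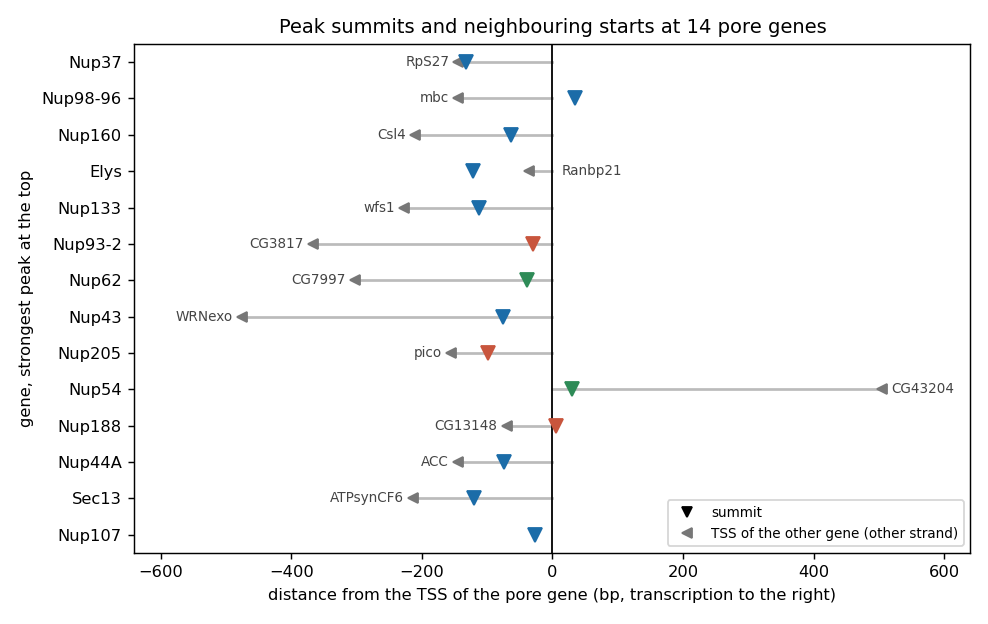
Distance in bp of the optimal summit from the TSS of each of the 14 pore genes (coloured triangles, transcription to the right) and of the TSS of the protein-coding gene that shares the peak (grey arrowheads, other strand). Measured to the gene's nearest TSS, every summit lies between 133 bp upstream and 35 bp downstream, and Nup107 alone has no partner.

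The partner genes have varied roles. Besides RpS27, Csl4, Ranbp21, ACC and wfs1, the endoplasmic reticulum protein wolframin, they were mbc, which activates Rac in myoblast fusion, WRNexo, an exonuclease gene, pico, an actin regulator gene, ATPsynCF6, a coupling factor of the mitochondrial ATP synthase, and CG3817, CG7997, CG13148 and CG43204. CG43204 starts 474 bp from the summit inside Nup54, so that pair overlaps and is not head to head. Summits lay closer to the pore gene than to the partner by a wide margin at Nup43, 75 bp against 401 bp from WRNexo, and at Nup93-2, 29 bp against 338 bp from CG3817. The reverse held at Nup37.

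Pore genes without an optimal promoter peak were mostly not empty in the ranked tables, which list peaks of any strength. Such a peak was found at 25 of 26 pore genes (96.2%), against 78.4% of all protein-coding genes, and Gp210, a transmembrane glycoprotein gene, was the exception. In the pooled table the 11 others without an optimal peak ran from 11.0 at Nup75 to 72.3 at Ndc1, below the 89.6 of Nup107. No pore gene had a signal between 72.3 and 89.6 in that table. The threshold is set on the IDR and not on the signal, so this gap marks no cutoff.

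Ndc1, a transmembrane protein needed for pore assembly in yeast, had the highest signal of the pore genes without an optimal peak. Its pooled peak of 72.3 had a global IDR of 0.62 in the table behind the optimal set and of 0.00793 in the table behind the conservative set, which includes it. Replicate 1 gave 40.2 and replicate 2 gave 31.3, neither past the threshold. Nup35, an inner ring linker, had 71.0 pooled, with a global IDR of 0.704 and of 0.0505 in these tables. Nup154, an inner ring scaffold gene, had 38.1.

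No gene of the cytoplasmic side or the basket had a promoter peak in any of the 4 thresholded sets. On the cytoplasmic side mbo, which holds export receptors back at the envelope, had a ranked signal of 43.2, Nup358, the filament protein that binds RanGAP, 36.8 and Nup214, the partner of mbo, 13.7. In the basket Nup50 had 55.2 and Nup153 32.2. By global IDR in the table behind the optimal set, Nup50 had the lowest value of the pore genes without an optimal peak, 0.103. In the table behind the conservative set the same peak had 0.684. Replicate 2 gave Nup50 38.4 at 0.024 and replicate 1 gave it 23.6 at 0.745, against the threshold of 0.01. The annotation lists the gene of the basket scaffold as Mgtor (FBgn0013756), for which RefSeq gives Mtor as a synonym. It had no thresholded peak, and a ranked signal of 65.8 pooled, 35.3 in replicate 1 and 27.8 in replicate 2.

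Some pore genes had thresholded peaks beyond 500 bp from their starts. Sec13 had one in an intron (chr3R:23356952-23357341), 584 bp downstream of its nearest TSS. That TSS lies inside the gene and is not the one beside its promoter peak. The intron peak had a signal of 109 in replicate 1, 77.9 in replicate 2 and 187 in the optimal set. The last is above the 103 of the Sec13 promoter peak in that set. Nup358 lies next to Nup37 on 3R, and a peak of 1370 stood past its 3′ end at CG11857, with 745 in replicate 1 and 621 in replicate 2. A peak of 664 stood past the 3′ end of Nup98-96 at tst, a helicase gene of RNA decay, with 345 in replicate 1 and 320.0 in replicate 2. The peaks at CG11857 and tst lie at the starts of those genes, while the intron peak lies inside Sec13 itself. The peak at tst was stronger than the promoter peak of Nup98-96, and Nup358 had no promoter peak in any thresholded set.

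No known promoter word was under most summits of pore genes. The words were sought on both strands in windows of 200 bp at the 14 summits, at 3597 other TSS-proximal summits and at the starts of 3013 protein-coding genes with no ranked peak. CAGCTG, a form of the E-box that basic helix-loop-helix factors bind, was in 5 of 14 windows of pore genes (Nup37, Nup133, Nup188, Nup44A and Sec13), in 14.9% of other summits, in 8.40% of starts without a peak and in 13.7% of all gene starts. GGTCACACT, the letters of the core promoter element Motif 1, was in 3 (Nup93-2, Nup62 and Nup43), in 8.12% of other summits, in 1.86% of starts without a peak and in 5.25% of all gene starts. The DNA replication-related element TATCGATA was in 1 (Nup188), in 10.3%, in 4.65% and in 7.83%. At pore genes without a peak, the 200 bp windows at 4 of 12 starts held its letters (Gp210, Nup50, Nup58 and Nup75). Those windows lie at starts and not at summits, so the counts are not like for like. With 14 windows a single gene moves a share by 7.14 percentage points.

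The remaining known words gave no higher counts. TATAAA was in 4 of 14 windows, against 29.9% of other summits and 29.1% of all gene starts. GAGAG was in 3, against 20.2% and 22.4%. CGATA, which TATCGATA contains, was in 5, against 44.5% and 39.3%. CACGTG was in 0, against 2.84% and 2.87%, and CAGGTAG, bound by the embryonic activator Zelda, was in 0, against 0.834% and 1.00%. In promoters of 300 bp, from 250 bp before the start to 50 bp after it, the 26 pore genes held TATAAA in 17, CGATA in 15, TATCGATA in 6, CAGCTG in 5, GGTCACACT in 4, GAGAG in 4, CACGTG in 2 and CAGGTAG in 1. All genes held CAGCTG in 17.6%, GGTCACACT in 6.04%, TATCGATA in 9.36%, TATAAA in 45.8%, GAGAG in 29.7%, CGATA in 47.3%, CACGTG in 4.20% and CAGGTAG in 1.64%.

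Words chosen for their frequency at other promoter peaks were in few windows of pore genes. The 10 8-letter words with the highest ratio of shares, other summits over starts without a ranked peak, were found without the pore genes, and GGCAGCAC led them at a ratio of 9.34. At least 1 of the 10 was in 2 of 14 windows of pore genes (14.3%), CAGCCCTG in Nup43 and CAACCCTG in Nup44A. The share was 26.4% at other summits and 4.25% at starts without a peak, the windows used to choose the words. All gene starts held one in 12.2% at 200 bp, and all promoters of 300 bp in 16.0%. With 14 windows, the share of pore genes was not told apart from that of other summits or of gene starts. The looser pattern CANCNCTG, written after the words were seen, was in 5 (Nup37, Nup160, Elys, Nup43 and Nup44A), in 25.3% of other summits, in 7.20% of starts without a peak, in 14.7% of all gene starts and in 19.0% of promoters. At pore genes without a peak, the pattern was in the windows at 2 of 12 starts (Nup58 and Nup75). A match describes the letters and does not make a binding site.

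Further sites of the pattern and of Motif 1 are shown on the gene's strand, with the matched letters in capitals and 10 bases on either side. Their middle lay within 91 bp of the summit, a distance that the 200 bp window itself limits. The pattern is shown for Nup160 (chr2L:11123757-11123784, plus strand, with its middle 7 bp upstream of the TSS) and Elys (chrX:19652244-19652271, plus strand, in the 5′ untranslated region of Ranbp21). Motif 1 is shown for Nup93-2 (chr3R:14898322-14898350, minus strand) and Nup43 (chr3R:18366640-18366668, plus strand), in the 5′ untranslated region of each.
Nup160 pattern: gcctggtgtgCACCGCTGgcgtaagcgt
Elys pattern: ggacgttagcCAGCACTGggccactcag
Nup93-2 Motif 1: gccaacatctGGTCACACTgatcttgccg
Nup43 Motif 1: ttcttgctctGGTCACACTtaactcgaaa

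Genes that work with the pore were set beside it. Over 5 lists of other genes, 32 of 58 (55.2%) had an optimal promoter peak and 20 had one in both replicate sets as well, against 31.0% and 20.9% of all protein-coding genes. A head-to-head neighbour stood at 36 of these 58. The lists were chosen with earlier results known, so these are counts and not tests.

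Transport receptors and Ran regulators had a peak at 16 of 23 genes, 12 of them in both replicate sets, and 14 of the 23 had a head-to-head neighbour. RanGAP, which stimulates hydrolysis of GTP by Ran in the cytoplasm, had 379.6 in replicate 1, 361 in replicate 2 and 746 in the optimal set. Tnpo-SR, the import receptor of splicing factors, had 254, 323 and 580.3, and the importin alpha gene Kap-alpha3 had 228, 248 and 464. Ran itself had 65.4, 62.6 and 126. These 3 leading signals were above those of 13 of the 14 pore genes.

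The smaller lists were more mixed. Of 3 genes for proteins that attach to the pore, Rae1 (115) and Gle1 (68.1), both known from mRNA export in yeast, had an optimal peak, neither in both replicate sets. Messenger RNA export genes had a peak at 5 of 14 (35.7%), close to the 31.0% of all protein-coding genes. The strongest were e(y)2 at 244, a gene shared by the SAGA and TREX-2 complexes, and the helicase gene Hel25E at 195. The THO complex gene thoc5 followed at 106. Lamina and nuclear membrane genes had one at 6 of 12, led by Msp300 at 664 and klar at 377, which link nuclei to the cytoskeleton, and kuk at 327. Lam, a lamin gene, and Hel25E share 1 peak between their starts, which is counted for each of them. COPII coat genes other than Sec13 had one at 3 of 6: the GTPase gene Sar1 at 1088, Sec23 at 163 and Sec16 at 109.

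**Figure D5:**
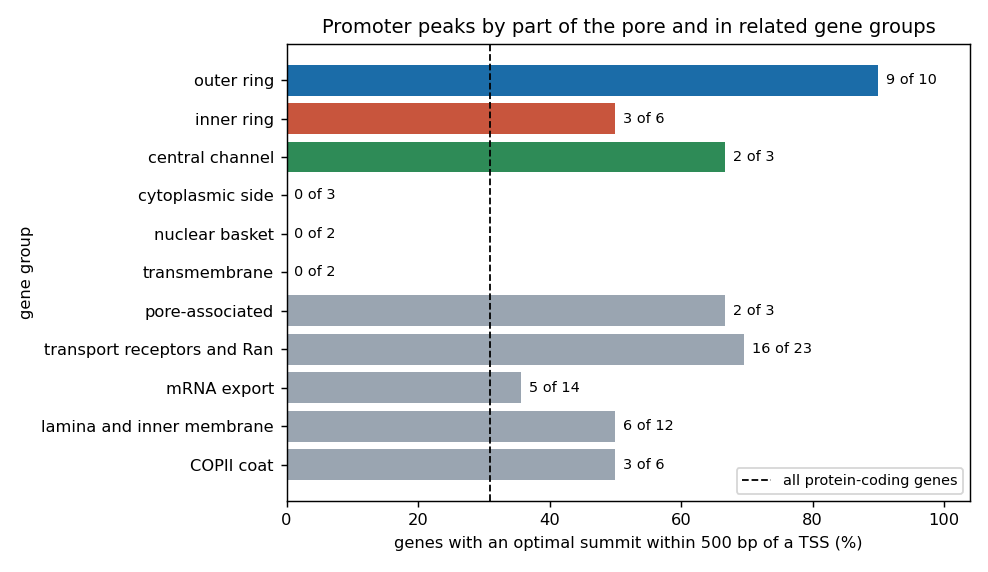
Share (percent) of genes with an optimal promoter peak in each subcomplex of the pore (upper bars) and in 5 lists of related genes (grey bars), with the share of all protein-coding genes as a dashed line. The outer ring (9 of 10), the inner ring (3 of 6) and the central channel (2 of 3) stand above the 31.0% of all protein-coding genes. The related lists run from 5 of 14 (35.7%), close to that share, to 16 of 23. All 6 inner ring genes have a head-to-head neighbour, and 54.6% of all such genes have a peak. The transmembrane, cytoplasmic and basket groups have none.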

How the data were processed

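The 2 replicates were sampled once each in 1 group, with replicate numbers from the labels. Per the deposited file descriptions, peaks were called by the irreproducible discovery rate (IDR) on dm6, from each replicate's alignments or from those of both, and 1 further input file, not described, entered the thresholded sets. Aligner, peak caller, control subtraction and read depth: not given in the sources used here. Intervals therefore cover the counting of genes only. The score, deposited by the authors, scales the IDR up to 1000, and its lowest value of 830 in the optimal set goes with a threshold of 0.01. The signal column as deposited holds a value per peak on an unstated scale, and it served to describe and rank peaks. The authors give −log10 of the global IDR in the ranked tables, and summit positions as offsets within each peak.

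Peaks on the major chromosomes (6148 of 6174 optimal) were joined to the TSS of 18277 genes (Ensembl release 115, FlyBase 6.54, without transposable elements) with Python 3.11.15 and pandas 2.3.3. The strongest peak within 500 bp represents a gene's signal. A search of planted summits was tested on simulated data. Promoter letters came from the RefSeq Release 6 genome, since no promoter table was used, and sequences are printed from outside 2R only. The members and lists were chosen with earlier results of these data known. Every pore gene is named, as are, in other lists, the 3 strongest genes and those that share a member's peak; Ran, Lam and genes beside distal peaks were added after their values were seen. Alternatives were other windows, sets, TSS choices, a stricter score, the stronger peaks and either replicate alone.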

Additional observations from a re-analysis of the deposited data

How the results depend on the processing

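The count of 14 pore genes with a promoter peak ran from 8 without replicate 2 to 13 without replicate 1, and the 6 lost without replicate 2 were Nup62, Nup205, Nup54, Nup188, Nup44A and Nup107. It was 9 when a peak counted only for the gene with the nearest TSS, losing Nup37, Elys, Nup205, Nup44A and Sec13. Other windows, sets, scores and TSS choices gave 10 to 16. Counting Mgtor, an alternative chosen after seeing the data, left the count at 14 of 27. The share of all protein-coding genes was not counted under the nearest TSS, other windows, scores, stronger peaks or TSS choices. Those counts therefore have no background beside them. The count of 32 related genes ran from 24 without replicate 2 to 25 without replicate 1 and was 21 in the stronger 50% of peaks. The median distance was -58 bp without replicate 1 and -81.5 bp without replicate 2, and the median signal 150 to 174 over the windows, sets and TSS choices. The outer ring and the other genes had 5 of 10 and 4 of 16 under the nearest TSS alone, 6 and 4 under the stronger 50% of peaks, and 7 and 1 without replicate 2. No paired analysis was possible because the series holds 1 group. Without controls, read depth or a scale for the signal, differences between peak strengths of genes have no error beyond the 2 replicates.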

Other observations

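Beyond the promoters, bocks, a gene of the inner nuclear membrane list, had a ranked signal of 280 pooled within 500 bp of a TSS and yet no optimal promoter peak, while Ote, of the same list, was in the optimal set with 79.4. By chromosome, 4 of 8 pore genes on 2R and 10 of 18 elsewhere had an optimal promoter peak. The same split was not counted over all protein-coding genes, so these counts have no background beside them.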
